A study of Mus musculus with 16 samples.

Results

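To determine how interferon gamma and inhibition of PARP enzymes change the H3K27ac-marked chromatin of the Toll-like receptor genes in macrophages, H3K27ac peaks within 50 kb of any annotated transcript start of Tlr1, Tlr2, Tlr3, Tlr4, Tlr5, Tlr6, Tlr7, Tlr8, Tlr9 and Tlr13 were collected from 4 peak lists on the mouse build mm10. H3K27ac, acetylation of lysine 27 of histone H3, marks active promoters and enhancers. Peaks of the 4 lists that overlapped by at least 1 bp were merged into a region, and 102 of the 55218 regions of the series lay near the 10 genes. The cells were bone marrow-derived macrophages (BMDMs), primary macrophages grown from the marrow of C57Bl6 mice aged 8 to 12 weeks. They were left untreated (Control), given 100 ng/mL interferon gamma for 1 h (IFNγ), given the PARP inhibitor PJ34 at 20 µM (PJ34), or given PJ34 1 h ahead of the cytokine (IFNγ+PJ34). Each condition had 2 ChIP replicates and 2 input DNA samples, 8 ChIP and 8 input samples in all, and the deposited list of a condition was made from both replicates. With 1 list per condition there was no replicate error to set a difference against. The values are descriptions of these lists, and no p-value is given.

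Toll-like receptors are innate immune receptors that recognise molecules of microbes. Tlr1, Tlr2, Tlr4, Tlr5 and Tlr6 act at the cell surface on lipoproteins, lipopolysaccharide and flagellin, whereas Tlr3, Tlr7, Tlr8, Tlr9 and Tlr13 sit in endosomes and detect nucleic acids. Ligand binding recruits the adaptors Myd88 or Ticam1, and the kinases that follow activate NF-κB and interferon regulatory factors. IFNγ is the classical priming cytokine of macrophages. Interferon-responsive genes are known for 2 sequence elements, the gamma-activated site (GAS) and the interferon-stimulated response element (ISRE), which interferon regulatory factors bind.

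The lists held 40708 to 44090 peaks over 52.6 Mb (Control), 42.5 Mb (IFNγ), 47.9 Mb (PJ34) and 44.1 Mb (IFNγ+PJ34). The kilobases covered around a gene are to be read beside these totals. Peaks in the receptor regions made up 0.261, 0.263, 0.285 and 0.279% of the covered bases in the same order. The files hold no read counts, so the depth is unknown. At a fold enrichment between 9.50 and 10.5 peaks had a median −log10 p of 45.5 (Control), 37.4 (IFNγ), 46.3 (PJ34) and 31.1 (IFNγ+PJ34), and fold values are therefore given beside a rank that is set within each list. The rank is the score percentile, 100 for the highest-scoring peak of a list, taken from the highest-scoring peak of a region. A difference of 10 percentile points or more is called higher or lower. A region above the 90th percentile has no room for such a difference upwards. All 7 macrophage marker genes examined (Csf1r, Adgre1, Cd68, Spi1, Itgam, Mertk and Fcgr1) had a start-site peak in every list, between the 52.2 and the 100 percentile. Of the markers of other cells, 2 of 4 T cell genes (Cd3e and Lck), 1 of 4 B cell genes (Ms4a1), 1 of 4 neutrophil genes (Camp) and 1 of 2 dendritic cell genes (Zbtb46) had one in at least 1 list, at percentiles from 4.55 to 81.5. None of the 4 fibroblast and 3 epithelial genes did. The part of other cells in the results was not tested.

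The DNA under 5 of the 10 peaks that ranked higher with IFNγ both without and with PJ34 is given first, as 300 bp of the plus strand centred on the summit of the highest-scoring peak, from the RefSeq sequence of GRCm38.p6, which is the mm10 build. Capitals mark matches to GAS (TTCNNNGAA), ISRE (GAAANNGAA), the macrophage factor PU.1 (GAGGAAGT) or AP-1 (TGANTCA) on either strand. The Tlr3 start site is shown by its matches alone, and the 4 regions not shown (2 at Tlr2, 1 at Tlr4 and 1 at Tlr5) held no match to any of these motifs.
Tlr4, 10.1 kb upstream, intergenic, chr4:66816459-66816758, 1 ISRE match: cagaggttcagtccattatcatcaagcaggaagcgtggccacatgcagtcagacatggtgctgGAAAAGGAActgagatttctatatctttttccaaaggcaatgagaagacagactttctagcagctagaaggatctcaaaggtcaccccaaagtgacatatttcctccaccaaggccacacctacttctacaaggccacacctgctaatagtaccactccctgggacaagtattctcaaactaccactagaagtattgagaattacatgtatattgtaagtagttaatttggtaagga
Tlr4, 33.9 kb downstream of the start, intron of the longest Tlr4 transcript, chr4:66862072-66862371, 1 GAS match: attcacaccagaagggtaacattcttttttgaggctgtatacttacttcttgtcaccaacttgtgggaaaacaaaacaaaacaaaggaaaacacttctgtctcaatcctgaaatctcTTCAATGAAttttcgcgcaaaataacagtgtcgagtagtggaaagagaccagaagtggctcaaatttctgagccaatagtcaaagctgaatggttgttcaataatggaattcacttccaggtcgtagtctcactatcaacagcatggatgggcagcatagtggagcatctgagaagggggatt
Tlr9, 5.64 kb upstream, intergenic, chr9:106216123-106216422, no match: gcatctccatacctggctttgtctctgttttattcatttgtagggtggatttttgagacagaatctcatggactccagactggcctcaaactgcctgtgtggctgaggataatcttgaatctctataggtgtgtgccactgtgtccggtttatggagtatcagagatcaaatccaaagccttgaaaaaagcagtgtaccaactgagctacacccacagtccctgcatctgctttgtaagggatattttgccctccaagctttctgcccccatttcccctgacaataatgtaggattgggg
Tlr9, 35.6 kb downstream of the start, intergenic, chr9:106258338-106258637, 1 ISRE match: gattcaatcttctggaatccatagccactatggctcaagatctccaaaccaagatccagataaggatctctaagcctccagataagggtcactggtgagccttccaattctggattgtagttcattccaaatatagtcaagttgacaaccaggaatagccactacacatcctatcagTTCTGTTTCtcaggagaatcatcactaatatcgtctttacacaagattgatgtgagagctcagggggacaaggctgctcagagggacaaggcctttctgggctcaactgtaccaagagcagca
Tlr13, 19.8 kb downstream of the start and past the gene's end, intergenic, chrX:106164905-106165204, 1 AP-1 match: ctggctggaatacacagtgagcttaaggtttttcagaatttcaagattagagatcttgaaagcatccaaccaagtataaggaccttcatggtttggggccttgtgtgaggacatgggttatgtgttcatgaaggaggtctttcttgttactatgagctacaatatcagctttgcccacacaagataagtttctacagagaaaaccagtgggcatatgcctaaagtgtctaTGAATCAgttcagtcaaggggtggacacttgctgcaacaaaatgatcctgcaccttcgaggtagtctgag

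The start-site peak of Tlr3, which also ranked higher with IFNγ in both settings, held 2 GAS matches, at −138 and −68 bp from its summit in plus-strand coordinates, on the side of the gene body. They are shown with 8 bases on either side, on the plus strand.
Tlr3, chr8:45410084-45410092: aggatattTTCAGCGAAacagttaa
Tlr3, chr8:45410154-45410162: tcctgggaTTCATTGAAatggtcac
For contrast, a GAS match also lay in a region that ranked lower with IFNγ in both settings, in the first kilobases of Tlr13.
Tlr13, 1.03 kb downstream of the start, intron, chrX:106144351-106144650, 1 GAS match: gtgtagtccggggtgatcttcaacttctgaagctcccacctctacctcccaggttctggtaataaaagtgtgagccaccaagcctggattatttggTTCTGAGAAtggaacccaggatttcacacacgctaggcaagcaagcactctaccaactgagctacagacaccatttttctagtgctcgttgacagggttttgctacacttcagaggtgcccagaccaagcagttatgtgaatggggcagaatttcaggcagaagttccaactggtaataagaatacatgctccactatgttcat

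Nearly all of the family was marked at its start sites. A peak lay within 1 kb of a transcript start of 10 of 10 genes (Control), 9 (IFNγ), 9 (PJ34) and 10 (IFNγ+PJ34), compared with 51.7%, 50.3%, 51.6% and 50.8% of all 21911 protein-coding genes. All 4 lists held one for 9 of the 10 receptors, compared with 48.7% of protein-coding genes. The exception was Tlr5, the flagellin receptor, whose start site had a peak of the 11.5 percentile (3.42-fold) in Control and of the 47.3 percentile (5.73-fold) in IFNγ+PJ34 and none in the other lists.

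At the other start sites the rank lay between the 67.3 and the 99.3 percentile. Tlr6, a partner of Tlr2 in lipoprotein recognition, ranked at the 97.8 (Control), 94.3 (IFNγ), 95.2 (PJ34) and 92.2 (IFNγ+PJ34) percentile. Tlr4, the lipopolysaccharide receptor, was at 97.5, 88.9, 88.8 and 99.3 in the same order. Control and IFNγ+PJ34 ranked above both other lists here.
Tlr7, a receptor of single-stranded RNA, was at 94.1, 92.2, 89.1 and 96.2, and its neighbour Tlr8 at 88.3, 77.9, 81.6 and 92.3. Both had their top rank in IFNγ+PJ34 and their second in Control, as Tlr4 did. Tlr1, the other lipoprotein partner of Tlr2, was at 92.2, 88.2, 91.7 and 85.3, and Tlr2 itself at 92.7, 88.1, 95.2 and 86.6. At these genes and at Tlr6 both lists made with IFNγ ranked below both lists made without it.
Tlr9, the receptor of unmethylated CpG DNA, was at 88.3, 69.3, 91.4 and 84.2, with its lowest rank in IFNγ. Tlr13, a mouse receptor of bacterial ribosomal RNA, was at 91.5, 77.5, 81.0 and 67.3. At both genes the lists with IFNγ again ranked below the lists without it. Start-site ranks were also lower with IFNγ over all protein-coding genes with a peak in both lists. Their median difference was −1.37 points for IFNγ minus Control and −4.11 points for IFNγ+PJ34 minus PJ34. Across the 9 receptors it was −4.64 and −2.99 points. Tlr3, the receptor of double-stranded RNA, was at 74.0, 86.4, 79.6 and 92.7. Tlr3 was thus the lowest of these 9 genes in Control and, with IFNγ, it was the start site that ranked higher by more than 10 points both without and with PJ34.

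**Figure D1:**
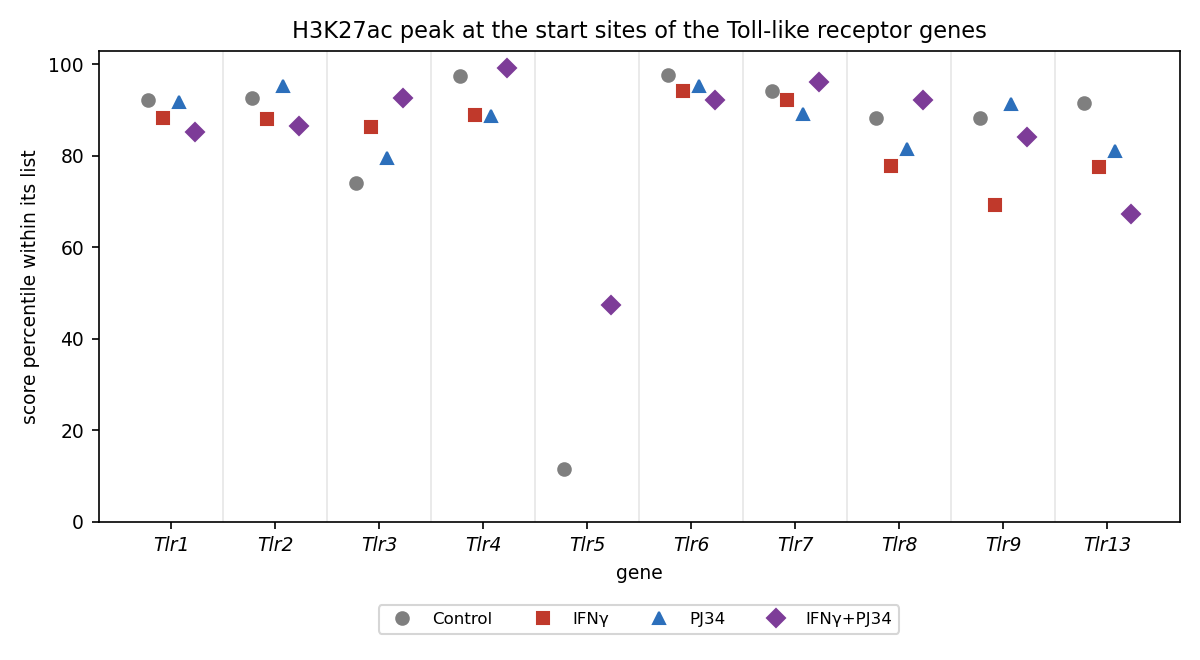
Score percentile (0 to 100, within each list) of the highest-scoring H3K27ac peak within 1 kb of a start site, for each receptor gene (x axis) in the 4 lists (1 point per list, no replicate error). Tlr3 is the gene whose IFNγ and IFNγ+PJ34 points (86.4 and 92.7) both lie above its Control and PJ34 points (74.0 and 79.6), and Tlr5 has points in Control (11.5) and IFNγ+PJ34 (47.3) and none in the other lists.

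The comparison of IFNγ with Control addressed what the cytokine alone added or removed. The IFNγ list held 63 receptor regions, of which Control lacked 12 (19%, exact 95% interval 10.2 to 30.9%). In turn IFNγ lacked 19 of the 70 receptor regions of Control (27.1%, 17.2 to 39.1%). Over all regions these shares were 18.2% and 32.3%, both within the intervals. The intervals cover counting error only and treat regions as independent, which neighbours are not. In the 51 receptor regions found in both lists the median difference in rank, IFNγ minus Control, was −4.64 points (exact interval of the median −11.1 to −3.08), and over all regions it was −2.31 points. The interval took in the value over all regions within 10 kb of a start site (−7.60 points, −12.8 to −1.91) and with only regions nearest to a receptor gene (−3.77 points, −13.1 to 0.749). It did not within 100 kb or when ranked by fold or width. Of the 51 regions, 8 were higher (15.7%, with 14.9% over all regions) and 21 were lower (41.2%, with 28.7%). At the start sites, Tlr3 was the 1 of 9 genes that was higher, by 12.4 points (3.86% of all genes with a peak in both lists), and Tlr8, Tlr9 and Tlr13 were the 3 that were lower, with differences of −10.4, −19 and −14.0 points (14.5%).

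The cytokine effect in the presence of PJ34 was taken as IFNγ+PJ34 against PJ34, from lists that the first comparison did not use. It is a different setting and not a repeat of the first comparison. Of 75 receptor regions in IFNγ+PJ34, 29 (38.7%, 27.6 to 50.6%) were absent from PJ34, where the share over all regions was 28.9%. In the other direction 19 of 65 (29.2%, 18.6 to 41.8%) were absent from IFNγ+PJ34, with 32.4% over all regions. The median difference of the 46 regions in both lists was −0.646 points (−4.67 to 10.5), and −2.61 points over all regions. Of the 46, 17 were higher (37.0%, with 22.1% over all regions) and 8 lower (17.4%, with 30.9%). At the start sites, Tlr3, Tlr4 and Tlr8 were the 3 of 9 genes that were higher, by 13.1, 10.5 and 10.8 points (6.23% of all such genes), and Tlr13 was the 1 that was lower, with a difference of −13.7 points (26.7%).

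In both settings, 10 of 102 regions (9.80%, 4.80 to 17.3%) were absent and then present, or higher by at least 10 points, with IFNγ, compared with 5.49% of all regions. The best ranked of them was the Tlr3 start site (chr8:45409237-45411332), where the fold enrichment was 13.0 in Control and 21.1 in IFNγ, and 18.2 in PJ34 and 30.0 in IFNγ+PJ34. The peak was 1328 bp wide in Control and 1628 bp with IFNγ, and 1475 bp with PJ34 and 2096 bp with both, so that rank, fold and width had the same order. The only other Tlr3 region lay 3.69 kb upstream (chr8:45414768-45415787) and was at the 50.7, 34.3, 42.5 and 45.6 percentile in the same order of lists, lower with IFNγ without PJ34.

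Another was an intergenic region 10.1 kb upstream of Tlr4 (chr4:66815918-66817446). It was at the 26.9 percentile in Control and 67.4 in IFNγ, and at 48.6 in PJ34 and 74.9 in IFNγ+PJ34. Its fold enrichment was 3.48 and 9.14, and 5.14 and 13.3. Among the receptor regions of all 4 lists this one had the largest upward difference between IFNγ and Control, 40.5 points. A smaller region 4.68 kb upstream of Tlr4 (chr4:66822079-66822907) had no peak in Control and ranked at 34.3 (IFNγ), 5.78 (PJ34) and 27 (IFNγ+PJ34). Another, 33.9 kb inside the gene (chr4:66862052-66862450), had a peak in IFNγ (44.0) and IFNγ+PJ34 (47.3) and none in the lists without the cytokine.

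At Tlr9 an intergenic region 5.64 kb upstream (chr9:106215979-106216960), nearer to the start of Twf2, had no peak in Control. It was at 60.3 in IFNγ (6.22-fold), 25.3 in PJ34 (3.65-fold) and 76.1 in IFNγ+PJ34 (10.6-fold). IFNγ thus had a peak that Control lacked here, while at the Tlr9 start site it ranked below Control. A second Tlr9 region, 35.6 kb downstream (chr9:106258222-106258779) and nearest to Alas1, an enzyme of haem synthesis, was found in IFNγ (34.3) and IFNγ+PJ34 (45.6) and in no list without IFNγ.

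At Tlr13 an intergenic region 19.8 kb downstream of the start (chrX:106163009-106165279) was at 19.9 in Control (3.86-fold) and 60.3 in IFNγ (7.79-fold). It had no peak in PJ34 and was at 64.3 in IFNγ+PJ34 (10.5-fold). The other 3 regions of this kind ranked between 15.3 and 56.4 where they had a peak. They were 1 region 19.2 kb upstream of Tlr5 (17.0 in IFNγ and 56.4 in IFNγ+PJ34), 1 region 18.9 kb upstream of Tlr2 (24.3 with IFNγ, 15.3 with PJ34 and 41.0 with both) and 1 region 45.0 kb downstream of the Tlr2 start (17.0 in IFNγ and 27 in IFNγ+PJ34), each without a peak in the lists not named. The region at 45.0 kb is nearest to Sfrp2.

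The opposite pattern, a region lower by at least 10 points or absent with IFNγ in both settings, was found in 8 of 102 (7.84%, 3.45 to 14.9%), compared with 10.5% of all regions. Both the start site of Tlr13 (chrX:106141473-106144205) and the region that follows it inside the gene (chrX:106144258-106152302) were among them. The start-site peak was enriched 42.8-fold in Control and 15.2-fold with IFNγ, and 19.6-fold with PJ34 and 11.6-fold with both. Its fold in IFNγ over that in Control was 0.356. At the other receptors with a peak in both lists this ratio ran from 0.276 (Tlr9) to 1.62 (Tlr3). At Tlr1, whose rank differed by −3.96 points, it was 0.479. The intragenic region was at the 84.6, 71.8, 78.4 and 57.4 percentile. Tlr13 thus held a distal region that was higher and a start site that was lower in the same pairs of lists.
The promoter of Twf2, an actin-binding protein, 18.0 kb upstream of Tlr9 (chr9:106202232-106204640), ranked at 87.4 (Control), 76.4 (IFNγ), 84.6 (PJ34) and 71.7 (IFNγ+PJ34). An exon of Tlr9 (chr9:106225815-106226794) had a peak in Control (52.1), PJ34 (50.8) and IFNγ+PJ34 (35.5) and none in IFNγ. The others were a region 37.7 kb downstream of the Tlr9 start (45.1 in Control, 24.3 in IFNγ, 46.0 in PJ34), a region 30.3 kb downstream of the Tlr8 start (19.9, 4.55 and 25.3 in the same lists) and 2 regions downstream of Tlr1, at 35.4 kb (26.9 in Control and 42.5 in PJ34) and 19.4 kb (3.96 and 25.3), all without a peak in IFNγ+PJ34. The region at 37.7 kb is nearest to Alas1 and the one at 30.3 kb nearest to Tmsb4x.

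**Figure D2:**
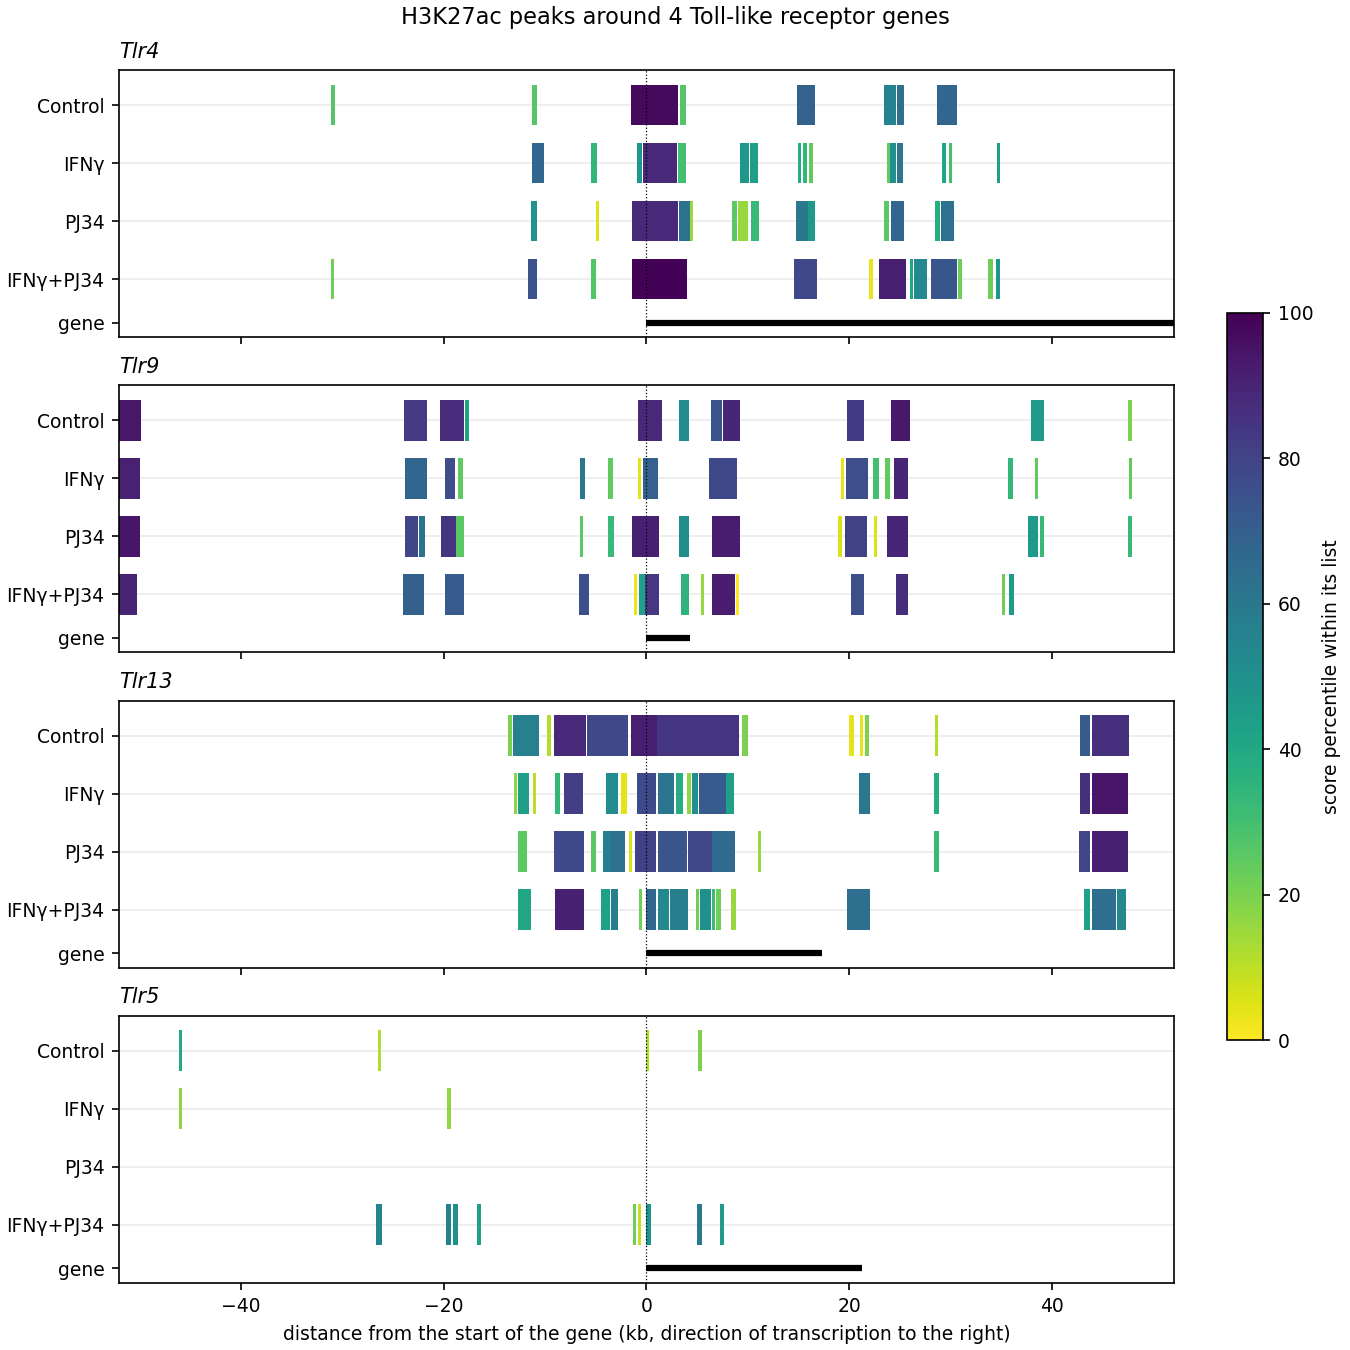
H3K27ac peaks around Tlr4, Tlr9, Tlr13 and Tlr5, with 1 row per list, the distance from the start of the gene in kb on the x axis the score percentile as colour (darker for higher ranks) and the annotated gene as a black bar. The Tlr4 region 10.1 kb upstream is darker in IFNγ (67.4) than in Control (26.9) and in IFNγ+PJ34 (74.9) than in PJ34 (48.6), the peak over the Tlr13 start is darkest in Control (91.5), and PJ34 has no peak at Tlr5.

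PJ34 alone was compared with Control to see what PARP inhibition did without the cytokine. Of 65 receptor regions in PJ34, 14 (21.5%, 12.3 to 33.5%) were absent from Control, with 21.3% over all regions, and 19 of 70 Control regions (27.1%, 17.2 to 39.1%) were absent from PJ34, with 26.0%. The median difference of the 51 shared regions, PJ34 minus Control, was 0.372 points (−2.87 to 3.42), and 0.312 points over all regions. Among them, 9 were higher (17.6%, with 18.5% over all regions) and 8 lower (15.7%, with 20.1%). At the start sites no receptor was higher (6.63% of all genes) and Tlr13 was lower, with a difference of −10.5 points (5.76%). Both shares of absent regions over all regions lay within the intervals of the receptor regions.

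Under IFNγ, the addition of PJ34 was assessed as IFNγ+PJ34 against IFNγ. Of the 75 receptor regions in IFNγ+PJ34, 24 (32.0%, 21.7 to 43.8%) were absent from IFNγ, with 28.9% over all regions, and 12 of 63 IFNγ regions (19%, 10.2 to 30.9%) were absent from IFNγ+PJ34, with 23.2%. The median difference of the 51 shared regions was 6.71 points (3.31 to 10.1), and 0.265 points over all regions. Of them, 19 were higher (37.3%, with 26.1% over all regions) and 5 were lower (9.80%, with 21.4%). At the start sites Tlr4, Tlr8 and Tlr9 were higher, by 10.4, 14.4 and 14.8 points (10.1% of all genes), and Tlr13 was lower, with a difference of −10.3 points (15.0%). When regions were ranked by peak width in place of score, the median difference was 2.86 points (−1.90 to 6.80). The interval also took in the value over all regions when regions were taken within 10 kb (6.61 points, −1.95 to 13.2) or 100 kb (5.6 points, −0.334 to 9.38) of a start site. This comparison shares the IFNγ list with the first one and the IFNγ+PJ34 list with the second.

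Differences with PJ34 in the same direction both without and with IFNγ were found at 4 regions. The regions 18.9 kb upstream of Tlr2 and 5.64 kb upstream of Tlr9 were higher with PJ34 in both settings (2 of 102, 1.96%, 0.238 to 6.90%, with 3.02% over all regions). The Tlr13 start site and a region 45.7 kb upstream of Tlr5 (40.2 in Control, 17.0 in IFNγ, no peak with PJ34) were lower in both (2 of 102, 1.96%, with 3.22%). Both shares over all regions lay within the interval.

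At Tlr4 the difference between IFNγ and IFNγ+PJ34 extended over the downstream part of the locus. Of the 17 Tlr4 regions, 13 lay downstream of the start, in introns, and those from 21.3 kb on lay only in the longest of the 4 annotated transcripts. The region 22.3 kb downstream (chr4:66850500-66853173) ranked at 63.3 (Control), 60.3 (IFNγ), 66.8 (PJ34) and 91.7 (IFNγ+PJ34). The region at 13.9 kb was at 69.0, 38.4, 59.9 and 78.2, and the region at 27.4 kb at 66.8, 41.2, 62.8 and 73.2. In these 3 regions the highest rank was that of IFNγ+PJ34. Another 5 downstream regions, from 21.3 to 33.1 kb, were found in IFNγ+PJ34 and in no other list, at the 3.47 to the 53.0 percentile. Over all regions, 10.4% were in IFNγ+PJ34 alone. Most of these 5 Tlr4 regions lay within 1 kb of a region found in all 4 lists. Regions at 8.45 kb (46.7 in IFNγ and 15.3 in PJ34) and 9.63 kb (44.0 and 32.8) were found in IFNγ and PJ34 alone (2.70% of all regions). Those at 3.71 and 7.77 kb (15.3 and 25.3) were in PJ34 alone (8.93% of all regions). The one at 3.71 kb lay within 1 kb of the start-site region, which all 4 lists held. H3K27ac peaks around Tlr4 covered 11.7 kb (Control), 11.8 kb (IFNγ), 14.5 kb (PJ34) and 17.9 kb (IFNγ+PJ34).

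Tlr5 was weakly marked, and its marking differed between the lists. None of its 10 regions ranked above the 59.4 percentile in any list, and none was found in all 4 lists. Of these, 9 were in IFNγ+PJ34, 4 in Control, 2 in IFNγ and 0 in PJ34, and 5 were in IFNγ+PJ34 alone. Of all 55218 regions, 34184 were in IFNγ+PJ34, 38276 in Control, 31675 in IFNγ and 35991 in PJ34, and 10.4% were in IFNγ+PJ34 alone. The highest ranked Tlr5 region was in an intron at 4.91 kb (chr1:182959741-182960302), at 19.9 in Control and at 59.4 in IFNγ+PJ34. The peaks around Tlr5 covered 1.28 kb in Control, 0.628 kb in IFNγ and 3.94 kb in IFNγ+PJ34. A PJ34 count of 0 of 10 regions sets no upper limit on the mark, since a list names only peaks above the caller's threshold.

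Tlr7 and Tlr8 are neighbours on the X chromosome. Of the 16 Tlr7 regions, 14 were found in Control, 14 in IFNγ+PJ34, 7 in IFNγ and 6 in PJ34. In that order the lists held 38276, 34184, 31675 and 35991 of all 55218 regions. Of the 16, 5 were found in Control and IFNγ+PJ34 alone (3.64% of all regions), at 5.74 kb (42.8 and 8.96), 8.75 kb (40.2 and 3.47) and 27.6 kb (3.96 and 43.6) downstream of the start, and 8.81 kb (3.96 and 15.6) and 25.6 kb (26.9 and 43.6) upstream of it. Those at 5.74, 8.75 and 8.81 kb lay within 1 kb of a region found in all 4 lists. Within the regions of all lists, the one 9.22 kb downstream in a Tlr7 intron (chrX:167314856-167321222) ranked at 79.0 (Control), 85.4 (IFNγ), 60.9 (PJ34) and 93.2 (IFNγ+PJ34), and the one 1.64 kb upstream (chrX:167332200-167336475) was at 75.6, 76.7, 62.8 and 89.9. Both had their lowest rank in PJ34 and their highest in IFNγ+PJ34. At Tlr8, a region 31.8 kb downstream (chrX:167228413-167231993), nearest to Tmsb4x, was at 73.7, 67.4, 81.4 and 50.2. The peaks around Tlr7 covered 24.5 kb (Control), 16.8 kb (IFNγ), 16.4 kb (PJ34) and 24.1 kb (IFNγ+PJ34). Over all regions of chromosome X the median difference had the same sign as on the other chromosomes in each of the 4 comparisons, for example −4.12 and −2.26 points for IFNγ minus Control.

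Tlr1 and Tlr6 lie side by side on chromosome 5 and share 10 of their regions. Here PJ34 held the most. Of the 13 Tlr1 regions, 12 were in PJ34, 10 in Control, 7 in IFNγ and 6 in IFNγ+PJ34, and the peaks covered 33.5 kb, 26.6 kb, 22.0 kb and 16.2 kb in that order. In the same order the lists held 35991, 38276, 31675 and 34184 of all 55218 regions. The best ranked Tlr1 region absent from a list lay 22.4 kb downstream of the Tlr1 start (chr5:64907591-64910338). It was at 50.7 in Control, 64.5 in IFNγ and 84.4 in PJ34, and had no peak in IFNγ+PJ34. The 3 regions between 14.8 and 21.3 kb downstream that were in PJ34 alone (8.93% of all regions) ranked from 15.3 to 46.0. The one at 14.8 kb lay within 1 kb of a region found in all 4 lists. The region 7.51 kb downstream (chr5:64917971-64925255) was at 78.3 (Control), 84.0 (IFNγ), 92.2 (PJ34) and 91.0 (IFNγ+PJ34). With the lists in this order, one 30.8 kb downstream (chr5:64898803-64901981) was at 69.4, 85.4, 79.4 and 75.6, where IFNγ was 16.0 points above Control. Upstream of Tlr6, the promoter of Fam114a1 was at 91.0, 79.4, 91.4 and 83.8 in this order, lower in IFNγ than in Control.

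Tlr2 kept 5 of its 8 regions in all 4 lists, where 38.9% of all regions were found. The region 28.6 kb downstream of its start (chr3:83812151-83813176) was at 68.2 in Control, 65.3 in PJ34 and 66.2 in IFNγ+PJ34, and at 34.3 in IFNγ. The region 42.7 kb upstream, nearest to Tmem131l, was at 40.2, 48.6 and 47.3 in those lists and 10.4 in IFNγ. Both were lowest in IFNγ. A region 22.5 kb upstream (chr3:83864289-83865874) was at 26.9 in Control, 46.7 in IFNγ and 66.1 in PJ34, with no peak in IFNγ+PJ34. The region 32.9 kb upstream, also nearest to Tmem131l, was at 49.1 (Control), 48.7 (IFNγ), 76.6 (PJ34) and 55.4 (IFNγ+PJ34), highest in PJ34.

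Across the family, 42 of the 102 regions (41.2%, 31.5 to 51.4%) were found in all 4 lists, compared with 38.9% of all regions. The highest percentile in any list had a median of 38.4 for the regions in fewer lists and 87.3 for those of all 4 lists, and 27 and 81.0 over all regions. A highest value is taken over more lists in the second kind. The median widths of the receptor regions were 520 and 2634 bp. Of the 60 regions missing from a list, 21 lay within 1 kb of a region found in all 4. The 14 regions found in IFNγ+PJ34 alone (13.7%, 7.71 to 22.0%, with 10.4% of all regions) came from Tlr4, Tlr5, Tlr7, Tlr8 and Tlr9. Control and IFNγ+PJ34 alone held 9 regions (8.82%, 4.11 to 16.1%), and over all regions that share was 3.64%. Of the 9, 5 lay near Tlr7, 3 near Tlr5 and 1 near Tlr4. The Tlr7 region 27.6 kb downstream of the start is also near Tlr8. Most of the 9 thus came from 2 loci, and the interval treats such neighbours as independent. No region was found in IFNγ alone (0 of 102, with an interval up to 3.55%), with 4.07% of all regions. These combinations are named after the values of all 15 were seen.

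**Figure D3:**
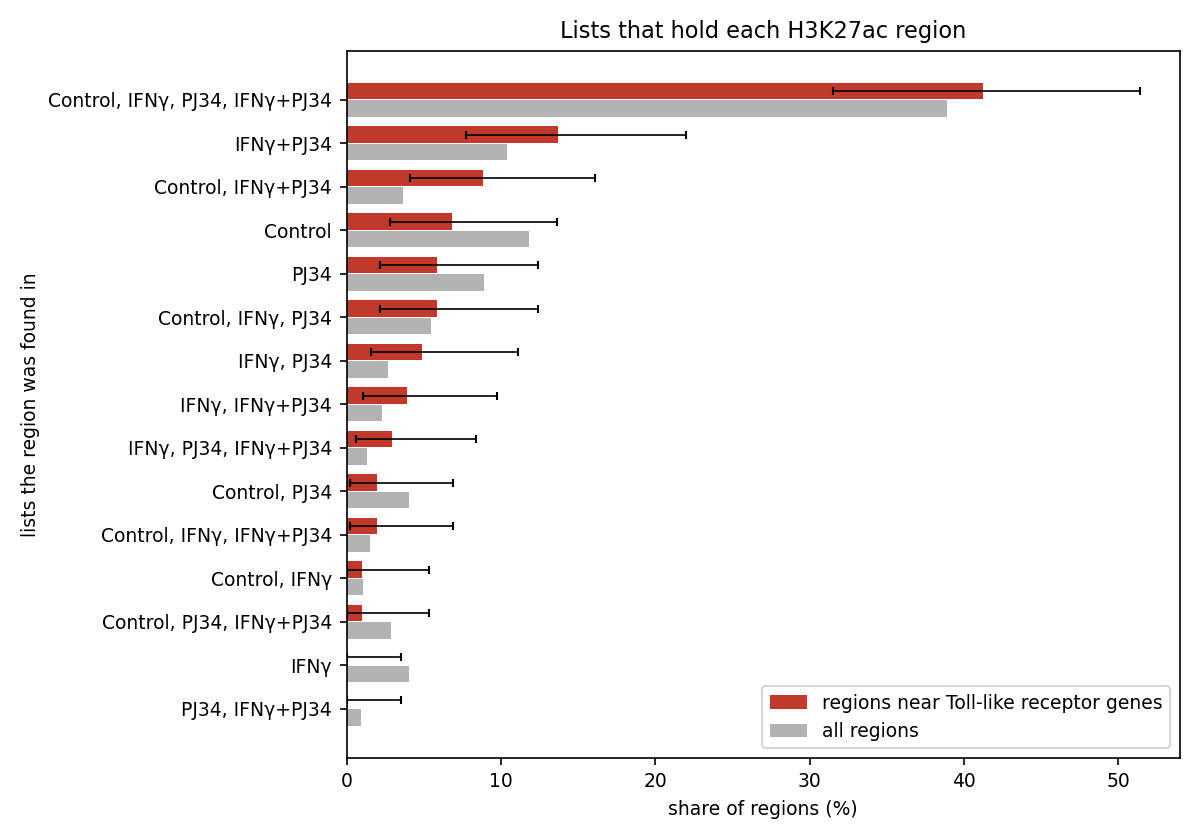
Share (%) of the 102 regions near Toll-like receptor genes (red, with exact 95% intervals for counting error) and of all 55218 regions (grey) found in each combination of the 4 lists. The red bar is longer than the grey one for Control with IFNγ+PJ34 (8.82% and 3.64%), mostly from regions near Tlr5 and Tlr7, and there is no red bar for IFNγ alone.

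The cytokine's shift at a given region was compared without and with PJ34 in the 42 regions of all 4 lists. It had the same sign in 23 of 42 (54.8%), as in 55.0% of the 21468 such regions of the genome. The Pearson correlation of the shift without and with PJ34 was −0.0341 in the 42 regions and 0.0241 in the 21468. The shift was at least 10 points upwards in both settings at 2 regions, the Tlr3 start site and the Tlr4 region 10.1 kb upstream, and at least 10 points downwards in both at 3, the Twf2 promoter near Tlr9 and the pair of regions at the Tlr13 start. In 7 regions (16.7%, with 11.2% of such regions over the genome) it was at least 10 points in opposite directions. Of the 7, 5 lay near Tlr4, Tlr7 and Tlr8, with the one 35.5 kb downstream of the Tlr8 start nearest to Tmsb4x. These 5 were lower with IFNγ alone and higher with IFNγ in the presence of PJ34. So was the region 10.6 kb upstream of Tlr13, while the region at the Pgk1 promoter, 42.6 kb downstream of Tlr13, was higher with IFNγ alone and lower with IFNγ in the presence of PJ34.

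**Figure D4:**
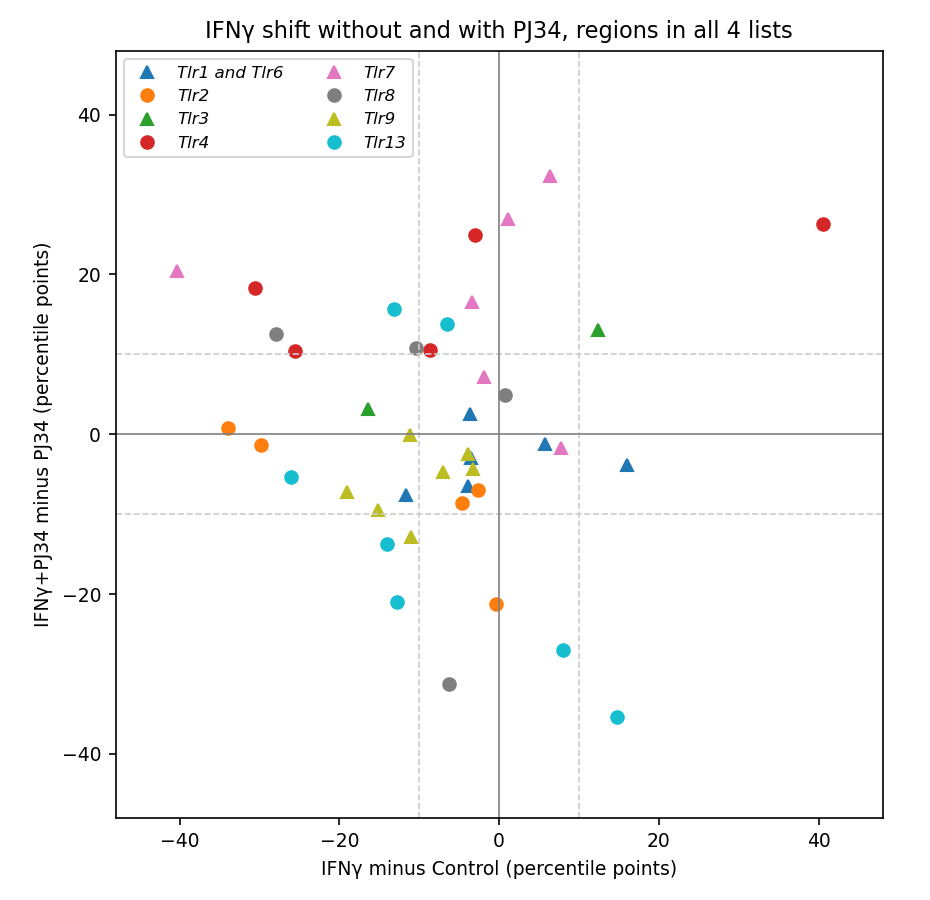
Difference in score percentile between IFNγ and Control (x axis, percentile points) and between IFNγ+PJ34 and PJ34 (y axis) for the 42 regions found in all 4 lists, 1 point per region, coloured by gene, with dashed lines at 10 points; regions shared by Tlr1 and Tlr6 share a colour. The points at the upper right are the Tlr4 region 10.1 kb upstream and the Tlr3 start site, and points of Tlr4, Tlr7 and Tlr8 lie at the upper left.

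The windows under the summits were searched for the same motifs. A GAS match was found in the 300 bp window of 13 of 102 regions (12.7%, 6.96 to 20.8%, with 8.85% of all regions), an ISRE match in 14 (13.7%, 7.71 to 22.0%, with 9.99%), an AP-1 match in 12 (11.8%, 6.23 to 19.6%, with 8.03%) and a PU.1 match in 3 (2.94%, 0.611 to 8.36%, with 2.19%). Each share over all regions lay within the interval. No match overlapped another. Of the 10 regions higher with IFNγ in both settings, 4 held a GAS or ISRE match (at Tlr3, Tlr9 and 2 at Tlr4), and so did 3 of the 8 lower ones (at Tlr1, Tlr8 and Tlr13). Over the genome these shares were 22.5% of the 3033 higher regions and 15.5% of the 5809 lower ones, with 17.8% of every region. The median GC content of the windows was 44.2%, and 47.0% over all regions. The summit lay in intergenic sequence in 53 of the 102 regions, in an intron in 30, within 1 kb of a start in 17 and in an exon in 2.

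RefSeq promoter windows were matched for 8 of the 10 genes, as 10 windows that reach from 250 bases before a start to 50 after it (Tlr4 and Tlr7 had none). GAS was matched at Tlr1, Tlr6 and Tlr8 (8.30% of all promoter windows), ISRE at Tlr6 and Tlr8 (8.56%), PU.1 at Tlr1 and Tlr9 (3.20%) and AP-1 at Tlr9 (7.81%). The 250 bases before a RefSeq start are shown for 3 genes whose start-site rank differed in different ways between the lists, in the direction of transcription. Tlr6 differed least, Tlr8 was highest in IFNγ+PJ34 and Tlr9 was lowest in IFNγ. Tlr6 has 2 windows. The one shown lies inside the GENCODE gene, downstream of the start sites used for the rank. The other, at those start sites (chr5:64960049-64960298), held no match in its 250 bases and is not shown.
Tlr6, minus strand, chr5:64959167-64959416, 2 ISRE matches that overlap: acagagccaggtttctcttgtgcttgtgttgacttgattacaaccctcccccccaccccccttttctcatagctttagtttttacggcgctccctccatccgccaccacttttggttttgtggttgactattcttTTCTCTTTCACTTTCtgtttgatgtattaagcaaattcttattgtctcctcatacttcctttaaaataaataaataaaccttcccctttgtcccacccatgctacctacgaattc
Tlr8, minus strand, chrX:167264330-167264579, 1 GAS and 1 ISRE match: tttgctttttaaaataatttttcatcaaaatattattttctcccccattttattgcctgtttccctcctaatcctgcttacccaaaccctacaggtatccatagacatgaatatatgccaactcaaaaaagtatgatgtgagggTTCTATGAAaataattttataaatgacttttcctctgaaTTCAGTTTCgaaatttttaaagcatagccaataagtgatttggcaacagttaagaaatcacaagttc
Tlr9, plus strand, chr9:106222348-106222597, 1 AP-1 match: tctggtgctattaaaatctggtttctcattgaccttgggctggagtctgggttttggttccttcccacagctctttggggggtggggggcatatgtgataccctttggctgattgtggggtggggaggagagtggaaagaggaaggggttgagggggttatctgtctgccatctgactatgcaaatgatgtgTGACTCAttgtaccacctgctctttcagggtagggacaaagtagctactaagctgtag

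The other genes of the pathway were examined to see whether their marking differed in the same way. They were 34 genes for ligand delivery, receptor folding and trafficking, signalling and its inhibition, including the remaining mouse receptors Tlr11 and Tlr12. A start-site peak was found in all 4 lists for 29 of them, in no list for 4 (Lbp, Tlr12, Sarm1 and Sigirr), and in Control (19.9) and IFNγ+PJ34 (31.8) for Tlr11. Tlr11 and Tlr5 thus had a start-site peak in Control and IFNγ+PJ34 alone, at low ranks in both genes. Of all 21911 protein-coding genes, 1070 had a start-site peak in some lists and not in others. How many of them had this pair of lists was not counted.

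Most pathway genes differed by under 10 points between IFNγ and Control. Myd88, the adaptor of nearly all Toll-like receptors, was at 99.2, 99.6, 99.6 and 99.8 in Control, IFNγ, PJ34 and IFNγ+PJ34. Ly96, the co-receptor that binds lipopolysaccharide with Tlr4, was at 99.0, 99.0, 99.1 and 99.1. Over the 29 genes the median difference was 0.0333 points for IFNγ minus Control and −4.04 for IFNγ+PJ34 minus IFNγ, where that of the 9 receptors was −4.64 and 4.01 and that of all protein-coding genes −1.37 and −1.20. Unc93b1, which carries the endosomal receptors to endosomes, was at 99.2, 92.8, 98.4 and 99.3, and Cnpy3, a folding factor, at 97.2, 88.9, 96.3 and 97.9.

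Between IFNγ and Control, Tab3, a subunit of the Tak1 kinase complex, was the 1 gene of 29 that was higher (66.3 and 77.0) and Ly86 the 1 that was lower (86.1 and 48.7). Ly86, the partner of the Toll-like receptor homologue Cd180, was at 57.6 in PJ34 and 99.1 in IFNγ+PJ34, with fold values of 22.4, 4.21, 6.93 and 68.1. It was the 1 gene higher in IFNγ+PJ34 than in IFNγ, by 50.5 points. The 5 genes that were lower there were Ticam1, the adaptor of Tlr3, at 87.0 in IFNγ and 50.2 in IFNγ+PJ34, Irak3, an inhibitor of the pathway (96.3 and 76.4), Cd36 (68.5 and 48.7), Tab3 (77.0 and 63.6) and Ticam2 (82.0 and 70.1). Over all genes with a start-site peak in both lists, 3.86% were higher and 14.5% lower in IFNγ than in Control. Between IFNγ+PJ34 and IFNγ, 10.1% were higher and 15.0% lower, so that 5 lower genes of 29 lay near the share over all genes. The pathway genes above are named because so few passed 10 points, and they were chosen after their values were seen.

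Of the 321 regions within 50 kb of the 34 genes, 3 (0.935%) were higher with IFNγ in both settings and 35 (10.9%) were lower, with 5.49% and 10.5% over all regions and 10 and 8 of 102 at the receptor genes. Among the 3, a region lay 8.77 kb from Tnfaip3, an inhibitor of NF-κB signalling, with no peak in Control and ranks of 38.4 (IFNγ), 15.3 (PJ34) and 31.8 (IFNγ+PJ34). Another lay within 50 kb of Ticam2 in an intron of Eif1a, at 72.8, 83.6, 74.8 and 91.2 in Control, IFNγ, PJ34 and IFNγ+PJ34.

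**Figure D5:**
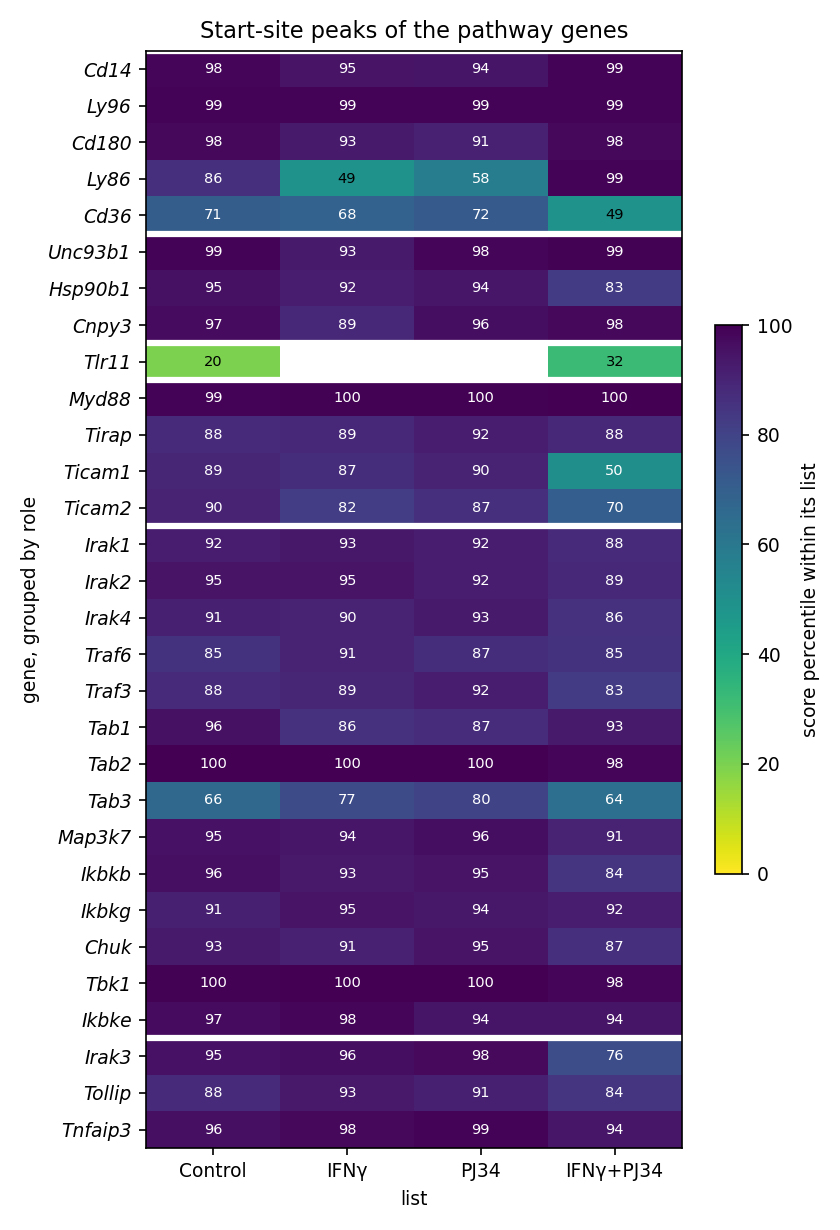
Score percentile of the start-site peak of the 30 pathway genes with a peak in at least 1 list (rows, grouped by role, white where a list has no peak) in the 4 lists (columns). Ly86 is at 86.1, 48.7, 57.6 and 99.1 and Ticam1 at 89.2, 87.0, 90.0 and 50.2, while most other rows keep a similar colour across the columns.

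The farthest region counted lay 49.8 kb from the Tlr9 start, at the Wdr82 promoter, with ranks of 93.9, 90.7, 94.5 and 90.2. The nearest one left out lay 50.9 kb from Tlr8, nearest to Tmsb4x, with 97.7, 96.3, 94.5 and 94.9. Of the 102 regions, 77 had a Toll-like receptor as their nearest protein-coding start site and 25 were nearer to another gene, and which gene a region acts on was not tested.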

How the data were processed

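H3K27ac ChIP-seq of mouse BMDMs was analysed from 4 deposited peak lists, 1 for each of Control, IFNγ, PJ34 and IFNγ+PJ34. Per the study's methods, the authors aligned reads to mm10 with Bowtie, filtered them, called relaxed peaks with MACS for each replicate against its input, and kept peaks that overlapped in both replicates. The input samples entered only as the caller's background. The lists deposited by the authors give for each peak a score, a fold enrichment (a ratio of ChIP over background), a −log10 p-value, a −log10 q-value and a summit. Depth is not in the lists, and a weaker or shallower library gives fewer and smaller peaks, which the percentile within a list corrects only in part.

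Peaks were merged into regions on an overlap of 1 bp and assigned to a gene within 50 kb of any transcript start of GENCODE M21, with the highest-scoring peak standing for a region and ties given their mean rank. All 10 members are named. Their named regions are those at a start site, the highest-scoring of each presence pattern, those that differed by 10 points or more between 2 lists, and those behind a count of 5 or fewer. Of the pathway list, the named genes were to be those with a start-site peak in some lists or with a region in the higher-scoring 50% of a list that another list lacks, and the other pathway genes were chosen after their values were seen. Of the 3 pathway regions higher with IFNγ in both settings, 1 is not reported here. The members and gene lists were chosen with earlier results of these data known. Intervals are exact (Clopper-Pearson for shares, order statistics for medians) at the 95% level. Alternatives changed the distance, the merging, the peak threshold, the ranking, the start-site distance and the motif window. The scripts were tested on simulated data and used Python 3.11.15, pandas 2.3.3, numpy 2.4.6, scipy 1.17.1 and matplotlib 3.10.9.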

Additional observations from a re-analysis of the deposited data

Results flagged for a closer look

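At 7 regions found in all 4 lists, the difference in score percentile that IFNγ made was at least 10 points in one direction without PJ34 (IFNγ minus Control) and at least 10 points in the other with PJ34 (IFNγ+PJ34 minus PJ34). With 1 list per condition the difference between these differences was not tested, and 11.2% of all regions found in the 4 lists had the same pattern. At Tlr4, the intronic region 13.9 kb downstream of the start had differences of −30.6 without and 18.3 with PJ34, and the region at 27.4 kb −25.6 and 10.4. The start site of Tlr8 had −10.4 and 10.8, and the region 35.5 kb downstream of it, nearest to Tmsb4x, −27.9 and 12.5. A region 23.3 kb upstream of Tlr7, in an intron of Prps2, had −40.3 and 20.4. Upstream of Tlr13, the region at 10.6 kb had −13.1 and 15.7. At the promoter of Pgk1, a glycolytic enzyme, 42.6 kb downstream of the Tlr13 start, the order was the opposite, with 14.7 without and −35.4 with PJ34.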

How the results depend on the processing

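Of 81 alternatives to 17 results, 66 gave a value within the counting interval or the limit set for the result, and 15 moved it. The direction was not stable where the interval of a median took in 0. IFNγ+PJ34 minus PJ34 was −0.646 points and became 6.0 with regions nearest to a receptor gene, 0.956 ranked by fold and 0.154 ranked by width, and PJ34 minus Control was 0.372 and became −1.16 within 100 kb, −2.01 with nearest regions and −0.231 ranked by fold. Merging peaks up to 1 kb apart lowered the share of Control regions absent from IFNγ from 27.1 to 15.6%, of PJ34 regions absent from Control from 21.5 to 9.52%, of Control regions absent from PJ34 from 27.1 to 15.6%, of IFNγ+PJ34 regions absent from IFNγ from 32.0 to 18.8% and from PJ34 from 38.7 to 27.1%, and of PJ34 regions absent from IFNγ+PJ34 from 29.2 to 16.7%. Over all regions the merged shares were, in the same order, 22.0, 12.0, 17.6, 20.7, 21.3 and 20.3%, all below the unmerged ones. With the higher-scoring 50% of each list, the share of PJ34 regions absent from Control was 7.89%, of Control regions absent from PJ34 12.5%, of IFNγ regions absent from IFNγ+PJ34 8.33%, of IFNγ+PJ34 regions absent from PJ34 22.7% and of PJ34 regions absent from IFNγ+PJ34 10.5% (2.94 to 24.8%), with 13.5, 16.7, 18.1, 23.6 and 25.2% over all regions. The share of IFNγ+PJ34 regions absent from PJ34 was thus above that over all regions in the whole lists and below it here, and for PJ34 regions absent from IFNγ+PJ34 the value over all regions lay above the interval. Where peaks had to cover 50% of a region, 44.1% of Control regions were absent from IFNγ, and 44.2% over all regions. Within 10 kb of a start site the share of PJ34 regions absent from IFNγ+PJ34 was 18.5% (32.4% over all regions) and the median difference PJ34 minus Control −3.84 points (−8.74 to 2.50). Ranked by peak width, the median of IFNγ+PJ34 minus IFNγ was 2.86 points. The causes were not tested. No paired analysis was possible because a list pools the replicates of its condition and no test was run, and no alternative could drop a single replicate.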
